A study of Homo sapiens with 4 samples.

Results

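The genes of fatty acid synthesis, storage and oxidation were followed upon METTL16 KO in Huh7, an established line of human liver cancer cells. The genes were taken from a list of 47 symbols, of which 45 were among the 18806 genes analysed and 2 are not analysed here. They were grouped as synthesis and desaturation (12 genes), uptake, activation and storage (21 genes) and oxidation (12 genes). RNA-seq was performed on 4 libraries of total RNA. The cells of all 4 came from 1 clone of Huh7 that expressed Cas9, were transduced with a lentiviral guide and were selected with hygromycin B. The sgNS libraries (2 replicates, genotype labelled WT) carried the non-targeting guide, and the METTL16 KO libraries (2 replicates, titled sgMETTL16 and labelled a METTL16 knockdown) carried a guide against METTL16. Both groups rest on 1 parental clone, and the labels do not say which guide sequence was used. The sources used here do not say whether the replicates were transduced separately, so that the p-values measure only the spread between these libraries.

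Hepatocytes make fatty acids from citrate in the cytosol, lengthen and desaturate them in the endoplasmic reticulum, and either esterify them to triacylglycerol, which is kept in lipid droplets or secreted, or pass them as carnitine esters into mitochondria for beta-oxidation. Synthesis genes are known targets of the sterol-sensing factor SREBP and of LXR, and genes of uptake and oxidation are known targets of PPARA. Hepatoma cells commonly rely on de novo synthesis.

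Values are TPM, which are scaled for transcript length and to a fixed total per library, so that genes may be compared with each other. TPM keeps no read count, and the depth and counting error of each library are therefore unknown. METTL16 stood at 26.3 and 25.1 TPM in the sgNS libraries and 17.6 and 18.8 TPM upon METTL16 KO, and fell by 0.50 on the log2 scale in limma (adjusted p of 2.4e-05). The transcript was thus lowered and not absent. Protein is not measured by these libraries, and the paper examines the loss of METTL16 protein in Huh7 separately, by Western blotting. All 10 hepatocyte markers were above 18 TPM in every library, and the list itself moved, with 8 higher and 2 lower. AFP, the fetal albumin relative, was 5.83-fold higher, FGB 3.58-fold higher and ALB 1.33-fold higher, while APOA2 was 3.72-fold lower and TF 1.34-fold lower, and the part of these shifts in the results below was not tested. Of 22 markers of fibroblasts, leukocytes, adipocytes and bile duct cells, 16 lay under 1 TPM in every library, and the adipocyte hormones LEP and ADIPOQ lay between 0 and 0.02 TPM. LYZ and SOX9 carried nearly all of the summed level of the list, which was 1749 and 1792 TPM in sgNS and 1132 and 1145 TPM in METTL16 KO. The summed level of the 20 other markers was 8.83 and 7.88 TPM in sgNS and 15.9 and 14.7 TPM in METTL16 KO, and its part in the results below was not tested. In bulk RNA, fewer cells with a transcript and less transcript per cell cannot be told apart. The 100 most abundant genes took 32.6% and 32.8% of all TPM in sgNS and 28.6% and 28.7% in METTL16 KO. Over all 11971 genes tested the log2 fold change had a median of 0.16. Scaling each library by its median ratio shifted that median by -0.16, which its construction brings about, and leaving out histone genes shifted it by -0.063. Which value stands for no change is therefore not known, and a small rise in TPM is to be read beside 0.16 as well as 0.

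The synthesis genes were mostly lower and the storage genes were split between rises and falls upon METTL16 KO. FABP1, PLIN2 and DGAT2 were among the rises, and DGAT1, FADS1, FADS2, FASN and SCD among the falls. Among the oxidation genes 3 were higher, CPT1A being 1, 6 were lower, including ACADVL and ACADM, and 3 did not pass. Of the 43 genes that passed the filter of a mean of 1 TPM, 36 changed at an adjusted p under 0.05 in limma, where 75.7% of all genes tested did so, so this share by itself does not set the genes apart. Their direction was 15 higher, where 50.1% of all genes tested were called higher, and 21 lower, where 25.6% were called lower. With median-ratio scaling the counts were 14 higher and 25 lower, and the share of higher genes among all called genes went from 66.2% to 49.9%. A log2 fold change of at least 1 was reached by 5 higher genes (background 7.7%) and 7 lower genes (background 3.77%). The groups did not overlap in 39 of the 43 genes (background 87.4%). The median log2 fold change was -0.52 for synthesis and desaturation, 0.07 for storage and -0.12 for oxidation, beside 0.16 for all genes tested. The storage median turned to -0.09 with median-ratio scaling. The summed TPM of the 45 genes was 6316 and 6226 in sgNS and 6914 and 6983 in METTL16 KO, and without FABP1 that of the other 44 was 5519.8 and 5392 against 4158 and 4151.

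**Figure D1:**
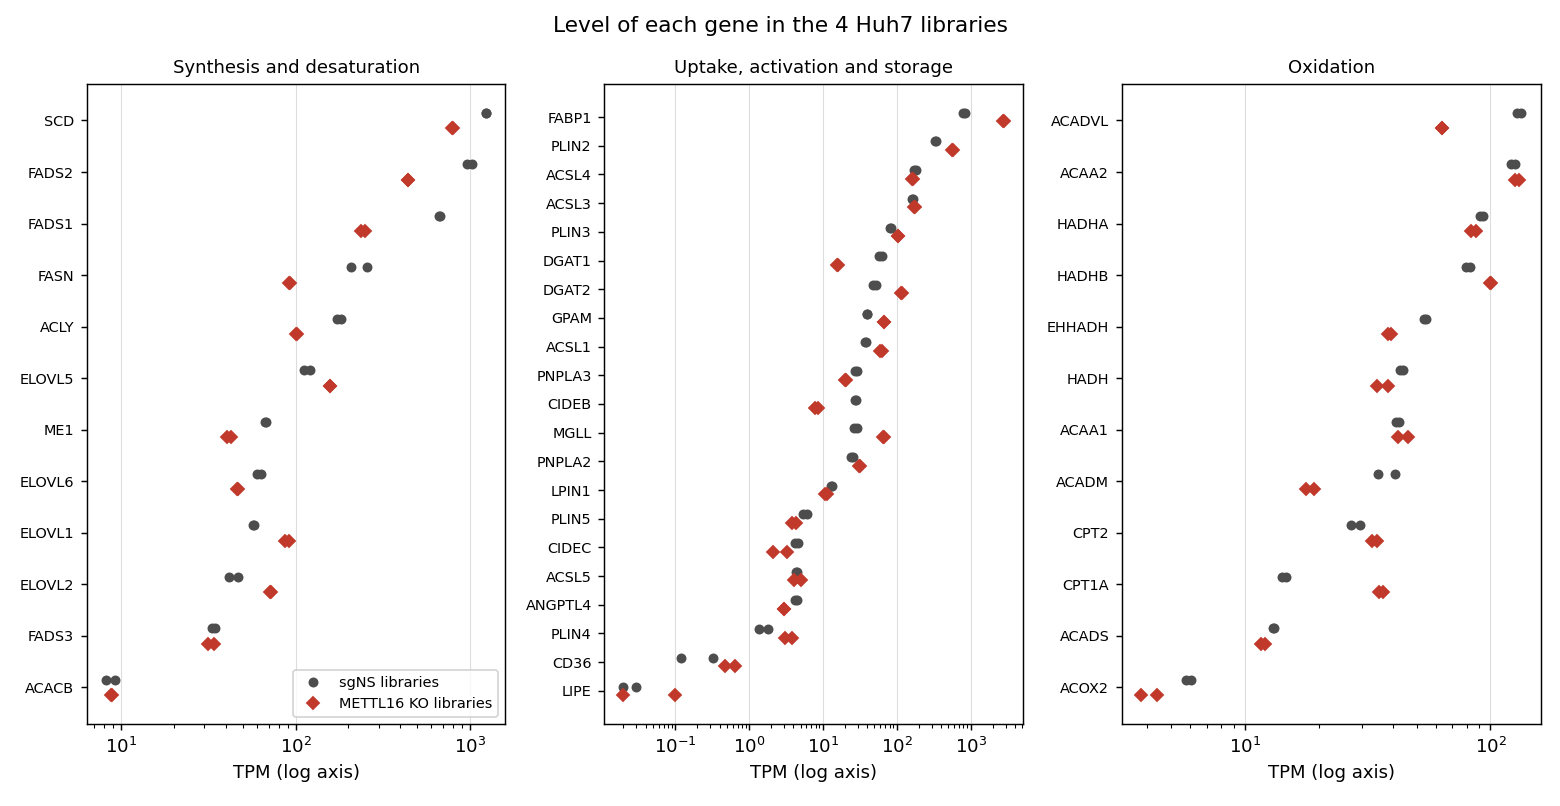
Level of each of the 45 genes on a log axis of TPM, with 1 point per library (circles, 2 sgNS libraries; diamonds, 2 METTL16 KO libraries) and genes ordered by their sgNS mean within each group. The 2 libraries of a group lie close together for most genes, FABP1 is the highest point at 2832 TPM in METTL16 KO, and LIPE and CD36 are the only genes with all libraries under 1 TPM.

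**Figure D2:**
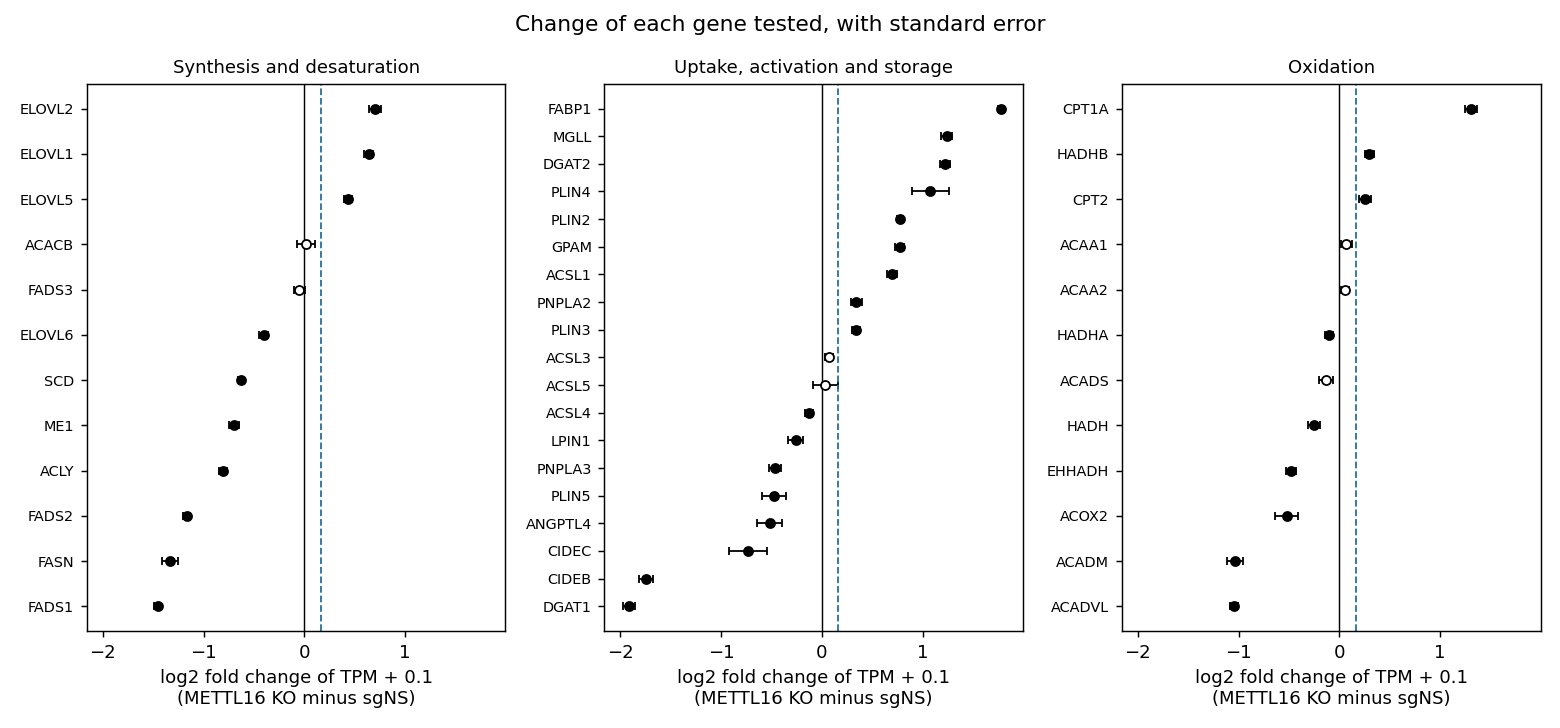
Log2 fold change of TPM + 0.1 (METTL16 KO minus sgNS, 2 libraries each) of the 43 genes tested, with bars of 1 standard error from limma. Filled points passed an adjusted p of 0.05, open points did not, the solid line is 0 and the dashed line is the median of all genes tested, 0.16; the values run from -1.91 for DGAT1 to 1.78 for FABP1.

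De novo synthesis begins with ACLY, which splits cytosolic citrate to acetyl-CoA, and ends with FASN, the multi-domain fatty acid synthase. ACLY stood at 182 and 173 TPM in the sgNS libraries and 100.3 and 102 TPM upon METTL16 KO. FASN stood at 258 and 208 TPM in the sgNS libraries and 91.3 and 92.4 TPM upon METTL16 KO. ME1, the malic enzyme that supplies NADPH, was at 66.5 and 67.7 TPM against 42.6 and 40.2 TPM. The groups of these 3 genes did not overlap, with METTL16 KO lower, and the sgNS libraries themselves differed most for FASN. FASN fell by 1.33 on the log2 scale (standard error 0.076), ACLY fell by 0.81 (0.040) and ME1 fell by 0.70 (0.048), with adjusted p-values in limma of 5.9e-08, 1.8e-08 and 2.5e-07. ACACB, the acetyl-CoA carboxylase of the mitochondrial surface, stood at 9.23 and 8.17 TPM in the sgNS libraries and 8.74 and 8.82 TPM upon METTL16 KO. Its groups overlapped, and its log2 fold change of 0.02 (standard error 0.088) did not pass.

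The desaturases SCD, FADS1 and FADS2 were the most abundant of the 12 synthesis genes, and all 3 fell, while FADS3 was far lower in level and did not pass. SCD, which places the first double bond in palmitate and stearate, stood at 1245 and 1230.3 TPM in the sgNS libraries and 794 and 806 TPM upon METTL16 KO. FADS1, the delta-5 desaturase of polyunsaturated fatty acids, was at 670.3 and 668 TPM against 239 and 249 TPM. FADS2, the delta-6 desaturase that acts before it, was at 1027 and 963 TPM against 443 and 442 TPM. The groups of these genes lay far apart compared with the spread within them. SCD fell by 0.63 (standard error 0.026), FADS1 fell by 1.46 (0.032) and FADS2 fell by 1.17 (0.034) on the log2 scale, with adjusted p-values in limma of 5.2e-09, 5.1e-11 and 3.8e-10. FADS3, a family member that acts on sphingoid bases, stood at 33.3 and 34.4 TPM in the sgNS libraries and 31.6 and 33.8 TPM upon METTL16 KO. Its groups overlapped and its log2 fold change of -0.05 (standard error 0.055) did not pass, though it stood at -0.21 with an adjusted p of 0.0056 after median-ratio scaling. The 3 FADS genes are neighbours on chromosome 11 of GRCh38, FADS1 on the minus strand from 61799627 to 61829318, FADS2 on the plus strand from 61792980 to 61867354 and FADS3 on the minus strand from 61873519 to 61892051. FADS1 and FADS2 share 490 exon bases on opposite strands, 5.51% of the exon bases of FADS1 and 11.2% of those of FADS2. The 250 bases before the start of FADS1 are printed here, from the RefSeq table on GRCh38.p14 (chr11:61817004-61817253, minus strand, where RefSeq places the start inside the GENCODE locus given above), since it had the largest fall of the 12 synthesis genes, with a cyclic AMP response element (TGACGTCA) in capitals.
FADS1: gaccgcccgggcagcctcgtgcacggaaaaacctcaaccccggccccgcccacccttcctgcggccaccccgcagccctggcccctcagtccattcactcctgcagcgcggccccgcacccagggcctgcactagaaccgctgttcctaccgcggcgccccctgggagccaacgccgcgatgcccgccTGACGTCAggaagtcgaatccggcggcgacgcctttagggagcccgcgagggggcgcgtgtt

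The elongases of fatty acids moved apart. ELOVL6, which lengthens palmitate to stearate, stood at 59.7 and 63.2 TPM in the sgNS libraries and 46.5 and 46.3 TPM upon METTL16 KO. ELOVL2 and ELOVL5 act on polyunsaturated chains, and ELOVL2 was at 41.6 and 46.6 TPM against 72.1 and 71.3 TPM while ELOVL5 was at 112 and 121 TPM against 157 and 158 TPM. ELOVL1, which makes very long chains, was at 57.7 and 57.3 TPM against 91.6 and 87.5 TPM. The groups did not overlap in any of these genes. ELOVL6 fell by 0.40 (standard error 0.048), while ELOVL2 rose by 0.70 (0.056), ELOVL1 by 0.64 (0.043) and ELOVL5 by 0.43 (0.043) on the log2 scale, with adjusted p-values in limma from 2.3e-07 to 1.6e-05. Each of these genes kept its direction and its call under median-ratio scaling and quantile normalization, with ELOVL5 at 0.27 and 0.34. The summed TPM of the 12 synthesis genes went from 3763 and 3640 to 2117 and 2137, and without SCD, FADS1 and FADS2 the sum of the other 9 went from 820.4 and 779 to 642 and 640.2.

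FABP1, the fatty acid binding protein of the liver cytosol, rose more than any other of the 43 genes. It stood at 796 and 834 TPM in the sgNS libraries and 2756 and 2832 TPM upon METTL16 KO, and thus rose by 1.78 on the log2 scale or 3.43-fold (limma, standard error 0.030, adjusted p of 8.7e-12). Its locus in GRCh38 runs from 88122982 to 88128062 of chromosome 2, minus strand. The 250 bases before its start are printed here, from the RefSeq table on GRCh38.p14 (chr2:88128063-88128312, minus strand), with a TATA box (TATAAA) in capitals.
FABP1: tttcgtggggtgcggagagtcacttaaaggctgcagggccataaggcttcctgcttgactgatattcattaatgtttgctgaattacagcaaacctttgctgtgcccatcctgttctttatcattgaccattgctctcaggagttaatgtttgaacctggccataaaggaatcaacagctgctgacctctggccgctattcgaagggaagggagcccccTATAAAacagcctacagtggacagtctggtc

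CD36, a fatty acid translocase of the plasma membrane, stood at 0.12 and 0.33 TPM in the sgNS libraries and 0.47 and 0.65 TPM upon METTL16 KO, too low to be tested. ANGPTL4, a secreted inhibitor of lipoprotein lipase, was at 4.46 and 4.20 TPM against 3.01 and 2.97 TPM and fell by 0.52 on the log2 scale (standard error 0.12, adjusted p of 0.0024 in limma). The acyl-CoA synthetases, which activate fatty acids, differed among themselves. ACSL1, a main form of the liver, stood at 37.7 and 38.3 TPM in the sgNS libraries and 63.0 and 60.0 TPM upon METTL16 KO, and it rose by 0.69 (standard error 0.048, adjusted p of 2.5e-07). ACSL4, which prefers arachidonate, was at 174 and 181 TPM against 166 and 159 TPM, a fall by 0.13 (standard error 0.039, adjusted p of 0.012) that did not pass without sgNS replicate 2 (-0.10, adjusted p of 0.052) or without METTL16 KO replicate 2 (-0.10, adjusted p of 0.15). In such fits 1 group has a single library, which is assumed to vary like the other group. With median-ratio scaling ACSL4 stood at -0.29 (adjusted p of 7.3e-05), and in limma without trend it did not pass (adjusted p of 0.083). ACSL3, a form of the endoplasmic reticulum and of lipid droplets, was at 163 and 166 TPM against 176 and 169 TPM, with a log2 fold change of 0.07 (standard error 0.037) that did not pass, and with median-ratio scaling it stood at -0.09 and passed as lower (adjusted p of 0.041). ACSL5 was at 4.31 and 4.49 TPM against 5.01 and 4.06 TPM, and its groups overlapped.

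Of GPAM, LPIN1, DGAT1 and DGAT2, which act along the route to triacylglycerol, LPIN1 changed least. GPAM, the mitochondrial acyltransferase that starts glycerolipid synthesis, stood at 39.5 and 39.9 TPM in the sgNS libraries and 67.9 and 67.9 TPM upon METTL16 KO, and it rose by 0.77 on the log2 scale (standard error 0.044, adjusted p of 6.1e-08 in limma). LPIN1, a phosphatidate phosphatase, had a mean of 13.2 ± 0.32 TPM (SD, n = 2) in sgNS and lay at 11.5 and 10.6 TPM upon METTL16 KO, a fall by 0.26 (standard error 0.074, adjusted p of 0.0084) that stood at -0.20 and did not pass without METTL16 KO replicate 2 (adjusted p of 0.090). The last step, from diacylglycerol to triacylglycerol, is carried out by the unrelated enzymes DGAT1 and DGAT2, and their transcripts went in opposite directions. DGAT1 stood at 62.9 and 57.5 TPM in the sgNS libraries and 16.3 and 15.6 TPM upon METTL16 KO. DGAT2 stood at 52.3 and 48.5 TPM in the sgNS libraries and 115 and 119.7 TPM upon METTL16 KO. In neither gene did the groups overlap, and the larger within-group SD was 3.76 TPM for DGAT1 and 3.27 TPM for DGAT2. DGAT1 fell by 1.91 (standard error 0.060, adjusted p of 6.0e-10), the largest fall of the 43 genes, and DGAT2 rose by 1.22 (standard error 0.048, adjusted p of 3.4e-09). The ratio of DGAT2 to DGAT1, which no scaling factor of a library can move, was 0.83 and 0.84 in sgNS and 7.06 and 7.68 in METTL16 KO. The exons of DGAT1 and of HSF1 on the opposite strand share 137 bases, 3.69% of those of DGAT1.

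The transcripts of the coat proteins of lipid droplets changed unequally. PLIN2, the main perilipin of hepatocytes, stood at 331 and 335 TPM in the sgNS libraries and 574 and 566 TPM upon METTL16 KO, and it rose by 0.77 on the log2 scale (standard error 0.030, adjusted p of 2.6e-09 in limma). PLIN3, which moves between cytosol and droplets, was at 84.0 and 81.7 TPM against 104 and 105 TPM, and it rose by 0.34 (standard error 0.040, adjusted p of 1.6e-05). PLIN4 and PLIN5 lie next to each other on the minus strand of chromosome 19, from 4502192 to 4518486 and from 4522531 to 4535224, and went in opposite directions. PLIN4 was at 1.81 and 1.37 TPM against 3.08 and 3.82 TPM and rose by 1.08 (standard error 0.18, adjusted p of 2.7e-04). PLIN5, which ties droplets to mitochondria, was at 6.07 and 5.36 TPM against 4.35 and 3.80 TPM and fell by 0.48 (standard error 0.12, adjusted p of 0.0035). The transcripts of CIDEB and CIDEC, whose products enlarge droplets or load lipoproteins, were lower. CIDEB stood at 28.4 and 27.6 TPM in the sgNS libraries and 8.72 and 7.87 TPM upon METTL16 KO, a fall by 1.74 (standard error 0.072, adjusted p of 4.7e-09). CIDEC was at 4.64 and 4.23 TPM against 3.31 and 2.09 TPM, a fall by 0.73 (standard error 0.19, adjusted p of 0.0044) that stood at -0.41 without METTL16 KO replicate 2 and did not pass with no filter on low genes (adjusted p of 0.053). The value of CIDEB is uncertain, since 63.3% of its exon bases are also exon of NOP9 and 38.0% of LTB4R2, both on the opposite strand. The study's methods name a stranded library kit, but how strand was used in counting is not given in the sources used here. NOP9 stood at 37.4 and 36.2 TPM in the sgNS libraries and 41.9 and 40.7 TPM upon METTL16 KO, and LTB4R2 at 1.16 and 0.56 TPM against 1.71 and 1.84 TPM.

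Of the lipase genes, PNPLA2 and MGLL were higher and PNPLA3 was lower. PNPLA2, the adipose triglyceride lipase, stood at 25.6 and 24.0 TPM in the sgNS libraries and 31.0 and 31.9 TPM upon METTL16 KO. MGLL, which releases the last fatty acid from monoacylglycerol, was at 28.8 and 26.7 TPM against 64.4 and 66.4 TPM. PNPLA3, a droplet protein related to PNPLA2, was at 28.7 and 27.4 TPM against 20.5 and 20.1 TPM. The groups overlapped in none of these genes. MGLL rose by 1.24 (standard error 0.053), PNPLA2 rose by 0.34 (0.057) and PNPLA3 fell by 0.46 (0.057) on the log2 scale, with adjusted p-values in limma of 6.5e-09, 2.3e-04 and 2.3e-05. LIPE, the hormone-sensitive lipase of adipocytes, stood at 0.03 and 0.02 TPM in the sgNS libraries and 0.10 and 0.02 TPM upon METTL16 KO and was not tested. Of the 19 storage genes tested, 9 were higher, 8 were lower and 2 did not pass. The share called was 89.5%, where 75.7% of all genes tested were called, 50.1% higher and 25.6% lower. The summed TPM of the 21 genes went from 1886 and 1922 to 4194 and 4249, and without FABP1 that of the other 20 went from 1089.7 and 1087 to 1438 and 1417.

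Of the 12 oxidation genes, CPT1A rose most, while ACADVL and ACADM fell most. CPT1A, the outer carnitine palmitoyltransferase that controls entry into mitochondria, stood at 14.7 and 14.2 TPM in the sgNS libraries and 35.2 and 36.5 TPM upon METTL16 KO. ACADVL, the dehydrogenase of very long chains, was at 134 and 128 TPM against 63.4 and 63.2 TPM. ACADM, the dehydrogenase of medium chains, was at 34.9 and 40.9 TPM against 19.0 and 17.8 TPM. These groups did not overlap. CPT1A rose by 1.30 (standard error 0.058), ACADVL fell by 1.05 (0.041) and ACADM fell by 1.03 (0.076) on the log2 scale, with adjusted p-values in limma of 8.3e-09, 3.3e-09 and 4.1e-07. The ratio of CPT1A to ACADVL was 0.110 and 0.111 in sgNS and 0.555 and 0.578 in METTL16 KO. CPT2, the inner carnitine palmitoyltransferase, was at 29.3 and 27.0 TPM against 34.5 and 32.9 TPM and rose by 0.26 (standard error 0.059, adjusted p of 0.0021), but it stood at 0.09 with median-ratio scaling and did not pass (adjusted p of 0.16). ACADS, the dehydrogenase of short chains, was at 13.1 and 13.1 TPM against 12.1 and 11.7 TPM, with a log2 fold change of -0.14 (standard error 0.070) that did not pass, against -0.30 with an adjusted p of 0.0024 after median-ratio scaling.

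The trifunctional protein carries the later steps of long-chain oxidation and is built of the products of HADHA and HADHB. HADHA stood at 90.6 and 93.0 TPM in the sgNS libraries and 87.2 and 83.5 TPM upon METTL16 KO, a fall by 0.10 (standard error 0.042, adjusted p of 0.042 in limma). The log2 fold change of HADHA was -0.27 with median-ratio scaling (adjusted p of 2.0e-04) and -0.17 without histone genes. It did not pass in limma without trend (adjusted p of 0.12). HADHB was at 82.9 and 79.7 TPM against 100.5 and 99.4 TPM and rose by 0.30 (standard error 0.041, adjusted p of 5.4e-05). HADHA did not pass without sgNS replicate 2 (log2 fold change -0.09, adjusted p of 0.11), without METTL16 KO replicate 1 (-0.14, adjusted p of 0.073) or without METTL16 KO replicate 2 (-0.07, adjusted p of 0.29). The ratio of HADHB to HADHA was 0.915 and 0.857 in sgNS and 1.15 and 1.19 in METTL16 KO, without overlap. The genes are read outward from 1 stretch of chromosome 2, with 306 bases between their starts in the RefSeq table, while their GENCODE loci overlap. The 250 bases before HADHB (GRCh38.p14, chr2:26244689-26244938, plus strand) are printed because this shared stretch stands before a pair whose transcripts moved apart, and the capitals mark the 194 bases that also lie in the same window before HADHA. This pair was chosen after its values were seen.
HADHB: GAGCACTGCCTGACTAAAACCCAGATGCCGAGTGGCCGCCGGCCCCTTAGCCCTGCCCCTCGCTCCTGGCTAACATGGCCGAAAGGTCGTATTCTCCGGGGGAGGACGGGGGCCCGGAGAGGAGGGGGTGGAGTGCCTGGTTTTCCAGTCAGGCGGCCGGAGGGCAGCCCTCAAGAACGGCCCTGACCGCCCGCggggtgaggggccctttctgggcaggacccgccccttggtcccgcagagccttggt

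HADH, the thiolases and the peroxisomal enzymes EHHADH and ACOX2 had smaller log2 fold changes than CPT1A, ACADVL and ACADM. HADH, the dehydrogenase of shorter hydroxyacyl chains, stood at 43.9 and 42.7 TPM in the sgNS libraries and 34.5 and 38.3 TPM upon METTL16 KO, a fall by 0.25 (standard error 0.058, adjusted p of 0.0022 in limma) that stood at -0.18 and did not pass without METTL16 KO replicate 1 (adjusted p of 0.053). ACAA2, the mitochondrial thiolase, was at 121 and 126 TPM against 131 and 126 TPM, and ACAA1, the peroxisomal thiolase, was at 42.5 and 41.2 TPM against 41.9 and 46.0 TPM. Of the exon bases of ACAA1, 22.7% are also exon of DLEC1 on the opposite strand. Neither thiolase passed, with log2 fold changes of 0.06 and 0.07 that stood at -0.11 and -0.10 with median-ratio scaling, where ACAA2 passed as lower (adjusted p of 0.036). EHHADH, the bifunctional enzyme of peroxisomes, was at 54.8 and 53.5 TPM against 39.5 and 38.1 TPM, and ACOX2, the oxidase of branched chains and bile acid precursors, was at 6.02 and 5.73 TPM against 4.38 and 3.77 TPM. The groups overlapped in neither, and EHHADH fell by 0.48 (standard error 0.048, adjusted p of 4.3e-06) and ACOX2 by 0.52 (standard error 0.11, adjusted p of 0.0016). Of the 12 oxidation genes, 3 were higher, 6 were lower and 3 did not pass, and their summed TPM went from 667 and 665 to 603 and 597. The share called was 75.0%, beside 75.7% of all genes tested, of which 50.1% were called higher and 25.6% lower.

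Within 5 sets of genes that share a name, the makeup of the transcripts shifted. DGAT2 held 45.4% and 45.8% of the summed TPM of DGAT1 and DGAT2 in sgNS and 87.6% and 88.5% in METTL16 KO, while the sum itself was 115 and 106 TPM against 131 and 135 TPM. ELOVL6 went from 22.0% ± 0.046 to 12.7% ± 0.071 (SD, n = 2) of the 4 ELOVL genes, and their sum was 271 and 288 TPM against 367 and 363 TPM. ACSL1 went from 9.88% ± 0.099 to 15.3% ± 0.031 and ACSL4 from 46.2% ± 0.39 to 40.5% ± 0.039 of the 4 ACSL genes, whose sum was 378 and 390.2 TPM against 410.3 and 392.35 TPM. PLIN2 went from 78.7% ± 0.61 to 83.6% ± 0.24 and PLIN5 from 1.35% ± 0.12 to 0.60% ± 0.053 of the 4 PLIN genes. The sum of the FADS genes went from 1731 and 1665 TPM to 713 and 726 TPM, with FADS1 going from 39.4% ± 0.97 to 33.9% ± 0.66, FADS2 from 58.6% ± 1.07 to 61.5% ± 0.82 and FADS3 from 2.00% ± 0.099 to 4.55% ± 0.16 of it. These shares do not depend on the scaling of a library, and they were not tested.

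**Figure D3:**
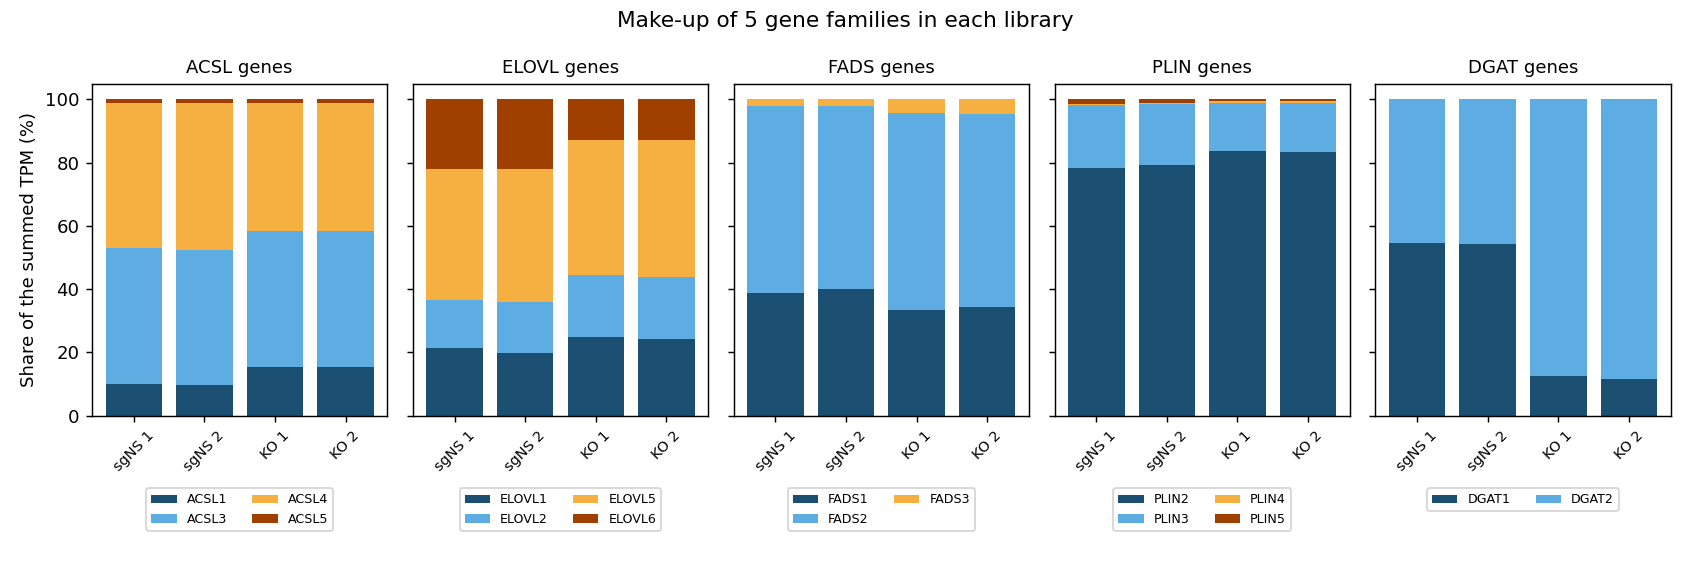
Share of each gene in the summed TPM of its family (y axis, percent), with 1 stacked bar per library (2 sgNS, 2 METTL16 KO) and 1 panel for each family. The largest shift is in the DGAT panel, where DGAT2 makes up 45.4% and 45.8% of the bars in sgNS and 87.6% and 88.5% in METTL16 KO.

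Other genes of the same routes were counted from lists set out by role, though with earlier results of these data known. Of 20 other synthesis genes tested, 6 were higher, 11 were lower and 3 did not pass (2 higher and 12 lower with median-ratio scaling). ACSS2, which makes acetyl-CoA from acetate, stood at 60.1 and 59.7 TPM in the sgNS libraries and 10.1 and 10.4 TPM upon METTL16 KO, and it fell by 2.53 on the log2 scale (standard error 0.055, adjusted p of 4.6e-11 in limma). The dehydratase of elongation HACD1 fell by 1.99, its relative HACD2 fell by 0.47 and the ketoacyl-CoA reductase HSD17B12 fell by 0.77. The elongases ELOVL3 and ELOVL4 rose by 1.44 and 0.62, with ELOVL3 at 0.69 and 0.61 TPM against 2.20 and 1.70 TPM. ELOVL4 stood at 0.31 with quantile normalization and did not pass (adjusted p of 0.15). MCAT and ACSF3, which act in mitochondrial fatty acid synthesis, rose by 0.36 and 0.20, but neither passed with median-ratio scaling (adjusted p of 0.079 and 0.72). Of 22 other storage genes tested, 9 were higher, 9 were lower and 4 did not pass (6 higher and 11 lower with median-ratio scaling), and 13 lay under the filter. SLC27A2, an uptake protein and very long chain acyl-CoA synthetase, was at 3.41 and 3.49 TPM against 15.6 and 14.0 TPM and rose by 2.07 (standard error 0.093, adjusted p of 8.9e-09). GPAT3, an acyltransferase of the endoplasmic reticulum, rose by 1.55, ABHD5, the activator of PNPLA2, by 0.79 and the binding protein FABP5 by 0.73, while G0S2, the inhibitor of PNPLA2, fell by 0.88, the transporter SLC27A1 fell by 1.41 and the monoacylglycerol lipase ABHD6 fell by 0.49. Of 34 other oxidation genes tested, 15 were higher, 9 were lower and 10 did not pass, while median-ratio scaling turned the balance to 12 higher and 18 lower. CROT, which moves shortened chains out of peroxisomes, rose by 1.27 and the carnitine transporter SLC22A5 by 0.97. The acyl-CoA dehydrogenase family members ACAD10 and ACADSB rose by 0.78 and 0.62. ECI2, an enoyl-CoA isomerase, fell by 0.63 and CPT1B, the muscle form of the outer carnitine palmitoyltransferase, fell by 0.64. The share called was 85.0% for other synthesis genes, 81.8% for other storage genes and 70.6% for other oxidation genes, beside 75.7% of all genes tested.

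Of 30 regulators of fatty acid metabolism tested, 16 were higher, 7 were lower and 7 did not pass, with 76.7% called beside 75.7% of all genes tested, and with median-ratio scaling 8 were higher and 8 lower. INSIG1, which holds SREBP in the endoplasmic reticulum and is itself an SREBP target, stood at 317 and 321 TPM in the sgNS libraries and 98.2 and 95.4 TPM upon METTL16 KO and fell by 1.72 on the log2 scale (standard error 0.035, adjusted p of 2.8e-11 in limma). SREBF1, which encodes SREBP-1, was at 85.6 and 75.4 TPM against 54.9 and 55.2 TPM, and SREBF2 was at 168 and 154 TPM against 90.3 and 89.8 TPM. SREBF1 fell by 0.54 (standard error 0.058) and SREBF2 by 0.83 (0.046), and NR1H3, which encodes LXR alpha, fell by 0.49 (0.054). PPARA was at 25.8 and 25.1 TPM against 28.7 and 29.3 TPM and rose by 0.19 (standard error 0.054, adjusted p of 0.0089), but it stood at 0.02 with median-ratio scaling and did not pass (adjusted p of 0.73). The deacetylase SIRT1 rose by 0.90, the AMPK subunits PRKAA2 and PRKAB2 by 0.73 and 0.56, and HNF4A by 0.70.

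**Figure D4:**
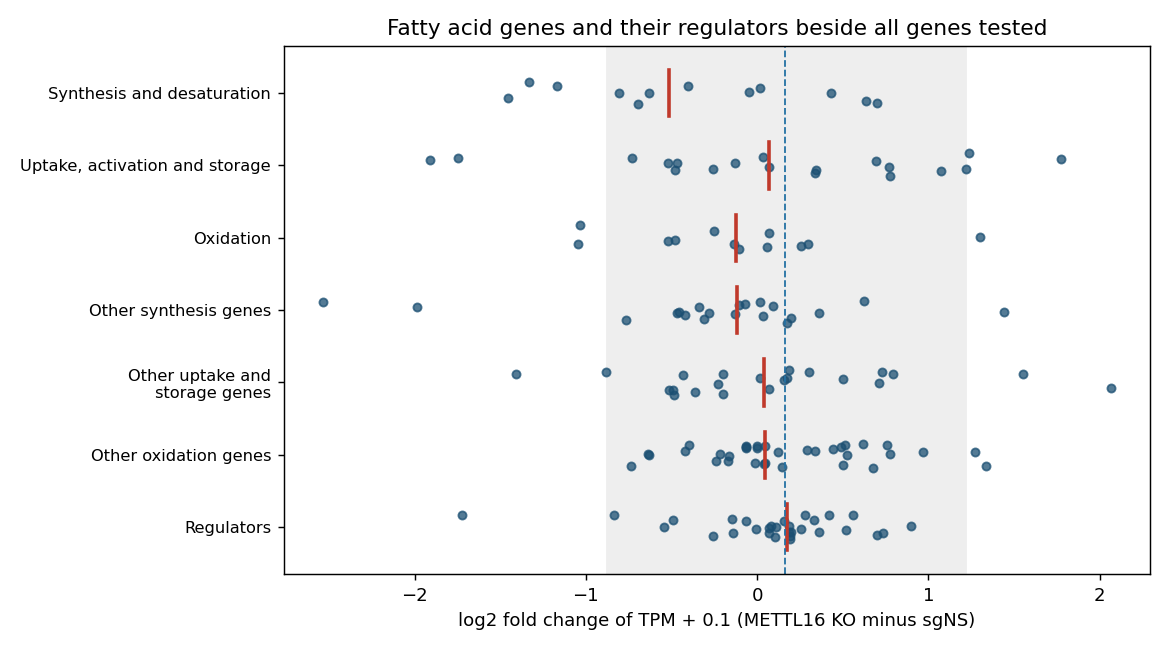
Log2 fold change (METTL16 KO minus sgNS) of each gene tested in the gene groups and in the lists of other genes of the same routes, with 1 dot per gene and a bar at the median of each list. The dashed line is the median of all genes tested, 0.16, and the band spans their 5th to 95th percentile; the medians run from -0.52 for synthesis and desaturation upward.

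Short motifs were searched on both strands of the 250 bases before each start in the RefSeq table, which held 57 promoters of 37 of the 45 genes and 35116 promoters in all. FASN, DGAT1, DGAT2, PNPLA3, MGLL, ACAA1, ACOX2 and EHHADH were not searched. The core of a sterol response element, TCACNCCAC, was in 3 of the 57 promoters, those of ACSL1, CIDEC and PNPLA2, and in 0.883% of all promoters. The E-box CACGTG was in 2 promoters, of ELOVL5 and PLIN2, and in 6.34% of all promoters, and CCAAT was in 17 promoters of 15 genes and in 32.0% of all promoters. TATAAA was in 6 promoters of 5 genes, among them FABP1, 31 to 26 bases before its start, and in 10.7% of all promoters. TGACGTCA was in 2 promoters, of ELOVL5 and of FADS1, 62 to 55 bases before the start of FADS1, and in 1.65% of all promoters. The last 2 motifs were added after the promoters had been read. Over the 13632 promoters of the genes tested, the shares were 0.924% for TCACNCCAC, 8.27% for CACGTG and 33.3% for CCAAT. They were 5.97% for TATAAA and 2.46% for TGACGTCA. No match was found for the direct repeats DR1 and DR4 of nuclear receptors, which says only that these letters are not in these windows.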

How the data were processed

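RNA-seq of 4 Huh7 libraries (2 sgNS, 2 METTL16 KO) was analysed. Per the study's methods, reads were trimmed with Cutadapt, mapped to GRCh38 with STAR and quantified per gene. The submitters' processing notes name STAR and RSEM, and versions, annotation and strand setting are not given in the sources used here. The values deposited by the authors are TPM: every column sums to the same fixed total, although the methods call the unit RPKM. TPM holds no counts, so count models, counting intervals and depths could not be had.

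Genes with a mean of at least 1 TPM (11971 of 18806) were tested on log2(TPM + 0.1) with limma 3.58.1 in R 4.3.3 (empirical Bayes with trend, Benjamini-Hochberg adjustment over all genes tested, threshold 0.05). Fold changes are on that scale and understate the change of low genes. The script was tested on simulated data. Loci and exon overlaps are from GENCODE 44 on GRCh38, and promoters from RefSeq on GRCh38.p14. Python 3.11.15, numpy 2.4.6, pandas 2.3.3 and matplotlib 3.10.9 were used.

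The genes and lists were chosen with earlier results of these data known. Library values are given for genes under the filter and for up to 7 higher and 7 lower genes of each group by absolute log2 fold change, and also for the remaining genes. Of the other lists, up to 4 genes a direction were named by the same order, PPARA and ACADSB were named beyond that, after their values were seen, and 1 gene that the order would name is not reported here. Alternatives were other pseudocounts and filters, median-ratio scaling, quantile normalization, TPM without histone genes, limma without trend, a replicate block, a fold threshold and leaving out each library.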

Additional observations from a re-analysis of the deposited data

How the results depend on the processing

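Of 553 values of single genes under the alternatives, 521 kept their direction and their side of the threshold, 13 lost the call, 5 gained it in the same direction and 14 turned in sign, of which 2 (ACSL3 and ACAA2 with median-ratio scaling) passed as lower, and 30 of the 43 genes kept both under every alternative run. The genes that turned had not passed the test: ACACB stood at -0.15 with median-ratio scaling, -0.17 with quantile normalization, -0.050 without histone genes and -0.071 (without sgNS replicate 2) to 0.10 with 1 library left out, ACSL5 at -0.13, -0.18 and -0.029 in the same order of scalings and -0.11 to 0.18 with 1 library left out, the lowest without METTL16 KO replicate 1, ACAA2 at -0.11, -0.033 and -0.0071, ACAA1 at -0.096 and -0.079 with the first pair, and ACSL3 at -0.094 with median-ratio scaling. The storage median was -0.094 with median-ratio scaling, 0.00030 with quantile normalization, 0.0056 without histone genes, 0.31 with no filter and 0.34 with a filter of 5 TPM, and 0.042 to 0.18 with 1 library left out, the highest without METTL16 KO replicate 2. The synthesis median was -0.68, -0.58 and -0.58 and the oxidation median -0.29, -0.27 and -0.19 under these 3 scalings, and with 1 library left out they were -0.53 to -0.50 and -0.15 to -0.092. The same scalings moved the median of all genes tested by -0.16, -0.15 and -0.063. Lower genes numbered 18 to 21 and higher genes 15 with 1 library left out. With a log2 fold change of at least 1 required, 922 of all genes were higher and 451 lower, and 5 and 7 of the genes described here. Over all genes, leaving out 1 library gave 5212 to 5894 higher and 2600.0 to 2968 lower genes, and METTL16 stood between -0.54 and -0.45.

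The replicate numbers do not establish a pairing with 2 pairs (correlation of same-numbered deviations -0.0445). With a replicate block 6048 genes were higher and 3112 lower, and of the genes described here 15 and 21. With TPM alone, depth is unknown. LIPE and CD36 lay under the filter. With no filter 45 genes were tested, of which 15 were higher and 19 lower.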

Other observations

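Genes of phospholipid synthesis, a route that competes with triacylglycerol for diacylglycerol and phosphatidate, were counted from a list written after the results above were seen. Of 21 tested, 12 were higher, 4 were lower and 5 did not pass (9 higher and 7 lower with median-ratio scaling), with 76.2% called beside 75.7% of all genes tested and a median log2 fold change of 0.28 beside 0.16. CDS1, which makes CDP-diacylglycerol, stood at 7.84 and 7.25 TPM in the sgNS libraries and 19.1 and 19.0 TPM upon METTL16 KO and rose by 1.33 on the log2 scale (standard error 0.074, adjusted p of 4.9e-08 in limma). PGS1, the first enzyme of cardiolipin synthesis, rose by 0.82, PISD, which makes phosphatidylethanolamine in mitochondria, by 0.48, and CHPT1, a cholinephosphotransferase, by 0.42. PTDSS2, a phosphatidylserine synthase, was at 20.7 and 19.4 TPM against 8.04 and 8.41 TPM and fell by 1.28 (standard error 0.072, adjusted p of 5.5e-08). SELENOI, an ethanolaminephosphotransferase listed under its older symbol EPT1, was at 33.8 and 33.5 TPM against 16.3 and 15.3 TPM and fell by 1.09 (standard error 0.059, adjusted p of 4.1e-08). The acyltransferases LPCAT4 and LPCAT3 fell by 0.45 and 0.16.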
